A study of Mus musculus with 6 samples.

Results

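The genes described here encode receptors that sense phosphatidylserine on the outer face of a membrane and the secreted proteins that bridge this lipid to a receptor. They are 9 genes chosen by function: the TAM receptor tyrosine kinases Mertk, Axl and Tyro3, the bridging ligands Gas6, Pros1 and Mfge8, and the engulfment receptors Stab1, Adgrb1 and Megf10. Each of the 9 symbols matched 1 of the 55769 features of the deposited tables, and all 9 were among the 17097 features tested. The study sequenced RNA of the cochlea, where sound is sensed, from mice at P3 (postnatal day 3), and held 3 Plscr5-/- and 3 wild type libraries. Phospholipid scramblases, the family that Plscr5 is a member of, are named for moving lipids from 1 leaflet of a membrane to the other. The sources used here do not give the strain, the sex or the altered part of Plscr5, nor say whether each library came from a separate animal, so p-values reflect only the spread among libraries, possibly a technical one. In the labels, the extraction text names a Pou4f3(Δ/+) line that no library lists as its genotype, and groups were taken from the library titles.

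Living cells keep phosphatidylserine on the inner leaflet, and its exposure marks dying cells and shed membrane for engulfment. Gas6 and protein S, the product of Pros1, bind the lipid through a domain rich in gamma-carboxyglutamate, which is made by a vitamin K dependent enzyme, and activate the TAM receptors with their other end. Mfge8 binds the lipid and hands it to integrins, whereas Stab1, Adgrb1 (also called BAI1) and Megf10 act as receptors themselves. In the nervous system such genes are known for the clearance of dead cells and of membrane by glia, and in the retina Mertk serves the uptake of shed photoreceptor outer segments.

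The TAM receptors and their ligands are paralogs, so reads could in principle be shared between them. The coding sequences from GENCODE M21 (GRCm38) shared 52.5% to 55.3% of aligned bases among Mertk, Axl and Tyro3, and no exact run longer than 14 bases was common to any pair. The 60 bases where all 3 receptors are most alike, in the kinase domain, are shown here to let the differences between the receptors be seen at their closest point. Capitals mark the 41 bases that the 3 genes have in common, and each sequence runs 5′ to 3′ on the coding strand.
Mertk: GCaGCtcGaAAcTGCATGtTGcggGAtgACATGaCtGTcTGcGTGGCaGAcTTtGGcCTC
Axl: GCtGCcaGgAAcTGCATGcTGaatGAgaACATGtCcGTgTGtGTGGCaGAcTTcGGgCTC
Tyro3: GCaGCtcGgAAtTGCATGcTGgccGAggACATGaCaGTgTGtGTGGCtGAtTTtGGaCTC
In Mertk this window covers coding bases 2158 to 2217 across exons 16 and 17 of a gene on chromosome 2, in Axl coding bases 2002 to 2061 across exons 17 and 18 on chromosome 7, and in Tyro3 coding bases 1939 to 1998 across exons 16 and 17 on chromosome 2, counted from the A of the start codon.

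Gas6 and Pros1 are most alike at the end of the carboxylated domain that binds the lipid, where 48 of 60 bases are the same and are given in capitals. That stretch is shown because it encodes the shared lipid-binding end of the ligands.
Gas6: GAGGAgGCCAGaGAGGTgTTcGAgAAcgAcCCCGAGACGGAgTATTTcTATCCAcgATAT
Pros1: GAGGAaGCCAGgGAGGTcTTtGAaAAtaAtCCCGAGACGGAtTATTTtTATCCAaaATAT
It covers coding bases 208 to 267 of Gas6 on chromosome 8 and 196 to 255 of Pros1 on chromosome 16, across exons 2 and 3 of both. Over the whole coding sequence 53.5% of aligned bases matched, with a longest exact run of 12 bases. The longest exact run that Adgrb1 shares with its paralog Adgrb2 is 26 bases. The longest run between Stab1 and Stab2 is 16 bases.

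The deposited values are TPM, transcript abundance per transcript length scaled to a constant total, so levels can be set side by side between genes, while read depth is unknown. Errors are SD over 3 libraries. A log2 fold change is the knockout mean less the wild-type mean of log2(TPM + 1), a scale that understates the change of low genes, and the test was that of limma. Plscr5 itself measured 4.30, 3.69 and 5.01 TPM in the Plscr5-/- libraries, against 14.53, 12.42 and 9.27 TPM in their wild-type counterparts, without overlap (log2 fold change -1.28, SE 0.18, limma adjusted p = 0.29), so its mean was 64.1% lower but it did not pass the threshold of 0.05. Over all features 2 passed, which is 0.0117% and includes none of the 9 genes, and 684 (4.00%) had an unadjusted limma p under 0.05. All 10 hair cell markers and all 10 supporting cell markers listed for this tissue passed the filter on low values. The supporting cell markers summed to 1681 to 1716 TPM in the knockout, below the 1762 to 1795 TPM of wild type, with 9 of 10 lower, 1 of them without overlap, and 0 past the test. Of the hair cell markers 7 of 10 were lower, 3 of them without overlap and 0 past the test. Their sums, 347 to 372 TPM in the knockout and 370 to 434 TPM in wild type, overlapped. Over all tested features, 9128 of 17097 were lower in the knockout, and 4.74% were lower without overlap. The part of the hair cell and supporting cell markers in the values below was not tested. Wild type replicate 3 stood apart in nerve markers. The 12 Schwann cell markers summed to 616 TPM there and to 1480 to 2432 TPM in the other 5 libraries. The 12 neuron markers summed to 422 TPM there, against 722 to 1063 TPM. Not every marker was low in that library. Sox10 (186.1 TPM), Ncmap (33.26 TPM) and Syt1 (68.03 TPM) lay inside the range of the other 5, and Gata3 (157.15 TPM) lay above it. The estimate without that library is given beside each member.

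None of the 9 genes changed detectably with genotype. Their log2 fold changes ran from -0.07 for Stab1 to 0.30 for Adgrb1, with 6 higher and 3 lower and a median of 0.03, where the median of all tested features was -0.01. 0 members passed after adjustment (limma adjusted p from 0.989 to 0.998) and 0 had an unadjusted p under 0.05. In the main fit the whole 95% confidence interval stayed inside a 1.5-fold change of TPM + 1 for 8 of the 9 genes. For all 9 it stayed inside a 2-fold change. Megf10 met the 1.5-fold bound narrowly, with an upper limit of 1.46-fold, a log2 fold change of 0.55. That limit was 0.59 with a pseudocount of 0.1 and 0.70 without knockout replicate 3, both outside the bound. The groups failed to overlap at 1 member, Pros1, where 9.33% of all tested features have groups that do not overlap. In bulk tissue fewer cells of a type and less RNA per cell cannot be told apart, which holds for every level given here.

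**Figure D1:**
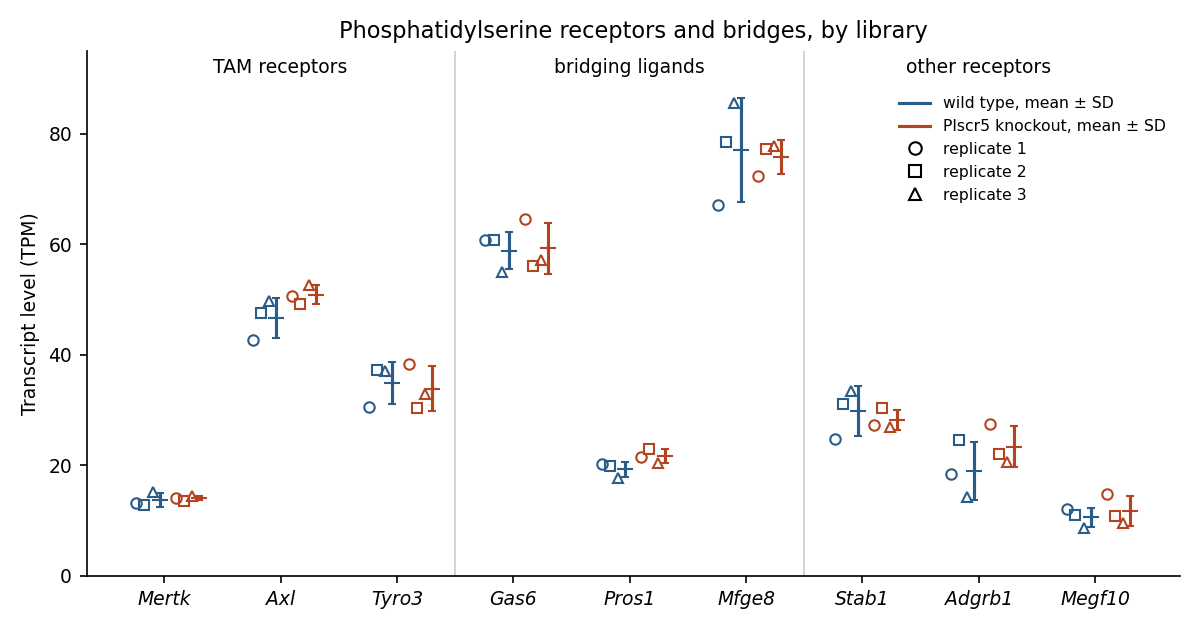
Transcript level in TPM (vertical axis, linear from 0) of the 9 genes in each of the 6 libraries, wild type in blue and Plscr5 knockout in red, with marker shapes for the replicate and a bar for the mean ± SD of 3 libraries. Mfge8, Gas6 and Axl were the highest of the genes in both genotypes, and only Pros1 had groups that did not overlap.

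Among the TAM receptors, Axl was the most abundant. Axl (ENSMUSG00000002602), a receptor whose ligand among these genes is Gas6, measured 50.67, 49.16 and 52.63 TPM in the Plscr5-/- libraries, against 42.63, 47.53 and 49.62 TPM in their wild-type counterparts. The groups overlapped by the highest wild-type library, wild type replicate 3, which lay above knockout replicate 2. The means were 50.8 ± 1.7 and 46.6 ± 3.6 TPM (log2 fold change 0.12, SE 0.08, 95% confidence interval -0.07 to 0.32, limma adjusted p = 0.989). The log2 fold change was 0.06 without wild type replicate 1, its lowest library, and 0.17 without wild type replicate 3.

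Tyro3 (ENSMUSG00000027298), the TAM receptor best known from neurons, was the second most abundant. It measured 38.37, 30.28 and 32.88 TPM in the Plscr5-/- libraries, against 30.57, 37.22 and 36.98 TPM in their wild-type counterparts, so that each genotype held both low and high libraries. The means were 33.8 ± 4.1 and 34.9 ± 3.8 TPM (log2 fold change -0.05, SE 0.12, 95% confidence interval -0.32 to 0.23). Its sign turned, to 0.03, without knockout replicate 2, and it was 0.00 to 2 decimals without wild type replicate 3.

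Mertk (ENSMUSG00000014361), which binds both Gas6 and protein S and is the TAM receptor of many phagocytes, was the least abundant of the 3. It measured 14.13, 13.57 and 14.33 TPM in the Plscr5-/- libraries, against 13.18, 12.79 and 15.21 TPM in their wild-type counterparts. The knockout values all lay inside the range of the wild type. The means were 14.0 ± 0.39 and 13.7 ± 1.3 TPM (log2 fold change 0.03, SE 0.11, 95% confidence interval -0.22 to 0.28). The log2 fold change was 0.10 without wild type replicate 3 and -0.01 without wild type replicate 2. Over all 6 libraries Mertk varied least among the receptors, with a coefficient of variation of 6.29%, against 7.03% for Axl and 10.4% for Tyro3.

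The order Axl, Tyro3, Mertk held in every library. Axl made up 51.6 ± 2.1% of the summed TAM receptor TPM in the knockout and 48.9 ± 0.40% in the wild type. Its share was 49.1%, 52.9% and 52.7% in the knockout and 49.4%, 48.7% and 48.7% in the wild type, so knockout replicate 1 lay among the wild-type libraries. Tyro3 made up 34.2 ± 2.6% and 36.6 ± 1.4%, and Mertk 14.2 ± 0.47% and 14.4 ± 1.2%. The 3 receptors summed to 93.01 to 103.2 TPM in Plscr5-/- libraries, against 86.38 to 101.8 TPM in wild-type ones. These ranges overlap, and no test was run on shares or sums of genes chosen together.

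**Figure D2:**
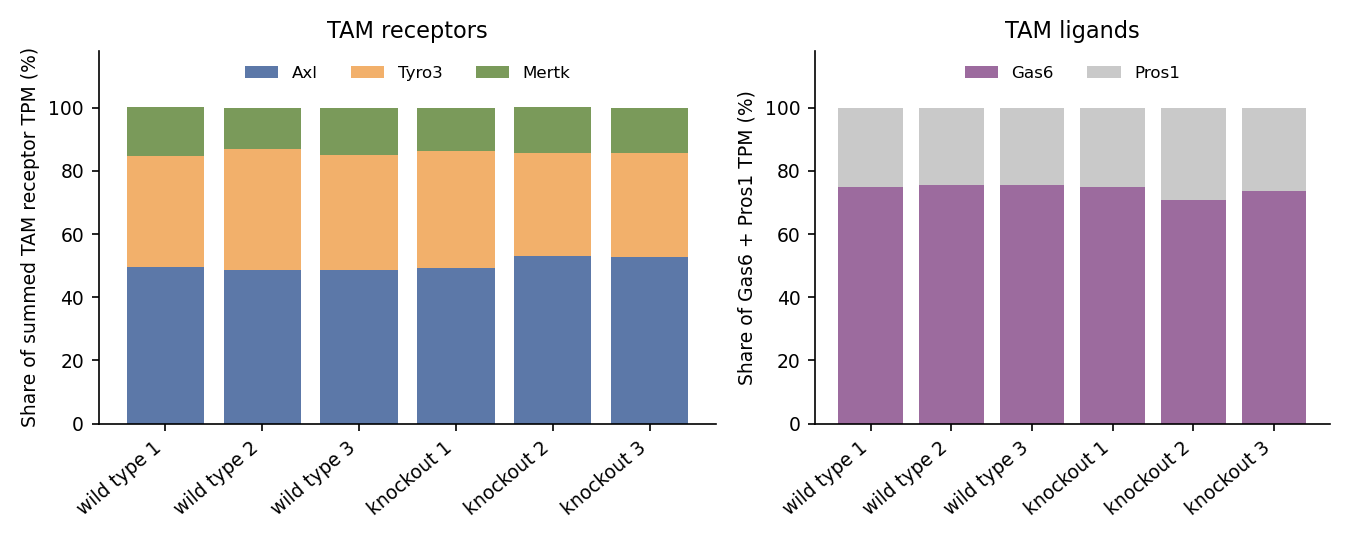
Stacked bars for each library show the share of each TAM receptor in their summed TPM (left) and of Gas6 and Pros1 in theirs (right), in percent from 0. Axl holds 48.7% to 52.9% of the receptor TPM, and Gas6 70.9% to 75.6% of the ligand TPM.

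Of the bridging ligands, Gas6 (ENSMUSG00000031451), which activates all 3 TAM receptors, measured 64.59, 56.07 and 57.05 TPM in the Plscr5-/- libraries, against 60.74, 60.76 and 54.94 TPM in their wild-type counterparts. Knockout replicate 1 was highest and wild type replicate 3 lowest, while the remaining 2 knockout libraries lay below the remaining 2 of wild type. The means were 59.2 ± 4.7 and 58.8 ± 3.4 TPM (log2 fold change 0.01, SE 0.09, 95% confidence interval -0.19 to 0.21). Without wild type replicate 3 the log2 fold change was -0.04.

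Pros1 (ENSMUSG00000022912), the gene of protein S, a ligand of Mertk and Tyro3 and an anticoagulant of blood plasma, was the 1 member whose groups did not overlap. It measured 21.53, 22.98 and 20.43 TPM in the Plscr5-/- libraries, against 20.30, 19.79 and 17.74 TPM in their wild-type counterparts. The gap between the genotypes was small, since the lowest knockout library and the highest wild-type library stood at 20.43 and 20.30 TPM. The means were 21.6 ± 1.3 and 19.3 ± 1.4 TPM, 12.3% apart (log2 fold change 0.16, SE 0.10, 95% confidence interval -0.06 to 0.38, limma adjusted p = 0.989). The exact permutation test on these 6 values, two-sided, had p = 0.1, and no smaller p is possible with 3 libraries a side. The log2 fold change of Pros1 was 0.10 without wild type replicate 3, and was 0.07 with the level of the nerve markers as a covariate. Neuron markers moved with it: their sum was 819 to 1063 TPM in Plscr5-/- libraries, against 422 to 865 TPM in wild-type ones, with 10 of 12 higher in the knockout. Osteoblast markers did too, with 6 of the 7 tested higher in the knockout. All 8 listed summed to 25.7 TPM or more in the knockout, overlapping the 24.5 to 28.1 TPM of wild type. That overlap includes Bglap, which did not pass the filter. Bglap made up 3.46 of the 28.1 TPM of wild type replicate 3 and reached at most 0.43 TPM elsewhere. The part of either list in the Pros1 difference was not tested beyond that covariate.

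Together Gas6 and Pros1 gave 80.9 ± 4.6 TPM in Plscr5-/- libraries, against 78.1 ± 4.7 TPM in wild-type ones. Gas6 was the larger part everywhere, with 75.0%, 70.9% and 73.6% in the knockout and 75.0%, 75.4% and 75.6% in the wild type. Gas6 was thus between 2.44 and 3.10 times as abundant as Pros1 in every library. This share does not set the genotypes fully apart, because knockout replicate 1 matched wild type replicate 1 at the precision given.

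Mfge8 (ENSMUSG00000030605), the bridge from phosphatidylserine to the integrins that hold the alpha v subunit, was the most abundant of the 9 genes. It measured 72.27, 77.26 and 77.76 TPM in the Plscr5-/- libraries, against 67.04, 78.51 and 85.57 TPM in their wild-type counterparts. The wild-type libraries held both the lowest and the highest value. The means were 75.8 ± 3.0 and 77.0 ± 9.4 TPM (log2 fold change -0.02, SE 0.10, 95% confidence interval -0.24 to 0.21), and without wild type replicate 3 the log2 fold change was 0.06.

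Among the integrin genes that serve Mfge8, named here after their values were seen, none passed the threshold. Itgb5 averaged 91.8 ± 5.1 TPM over the Plscr5-/- libraries, against 96.2 ± 3.4 TPM over wild type, and Itgav averaged 23.2 ± 3.3 and 25.1 ± 2.1 TPM. Itgb3 was the least even of them, at 16.31, 9.80 and 8.63 TPM in Plscr5-/- libraries, against 9.78, 10.99 and 4.00 TPM in wild-type ones. Its log2 fold change was 0.49 (SE 0.38), and 0.10 without wild type replicate 3. Edil3, a paralog of Mfge8 that also bridges the lipid to integrins, was lowest in that same library, at 1.77 TPM against 5.13 to 7.03 TPM in the other 5. Edil3 had a log2 fold change of 0.58 (SE 0.32, limma adjusted p = 0.989) and of 0.19 without wild type replicate 3. Mfge8 was 10.3 to 15.3 times as abundant as Edil3 in those 5 libraries and 48.3 times in wild type replicate 3.

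The engulfment receptors varied more between libraries than the TAM receptors. Stab1 (ENSMUSG00000042286), a scavenger receptor of macrophages and sinusoidal endothelium, measured 27.24, 30.27 and 26.98 TPM in the Plscr5-/- libraries, against 24.69, 31.01 and 33.50 TPM in their wild-type counterparts. The knockout values lay inside the wild-type range. The means were 28.2 ± 1.8 and 29.7 ± 4.5 TPM (log2 fold change -0.07, SE 0.12, 95% confidence interval -0.35 to 0.22), and without wild type replicate 3 the log2 fold change was 0.02. The 16 macrophage markers summed to 161 to 185 TPM in Plscr5-/- libraries, against 165 to 173 TPM in wild-type ones, and the 10 endothelial markers to 335 to 359 and 327 to 361 TPM, so the sums overlapped for both lists.

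Adgrb1 (ENSMUSG00000034730), an adhesion G protein-coupled receptor that binds phosphatidylserine and signals through Elmo and Dock proteins, had the largest estimate and the widest interval. It measured 27.50, 21.96 and 20.51 TPM in the Plscr5-/- libraries, against 18.34, 24.59 and 14.15 TPM in their wild-type counterparts. Knockout replicate 1 was highest and wild type replicate 3 lowest, while wild type replicate 2 lay above both remaining knockout libraries. The means were 23.3 ± 3.7 and 19.0 ± 5.3 TPM (log2 fold change 0.30, SE 0.20, 95% confidence interval -0.15 to 0.76, limma adjusted p = 0.989), which allows anything from 0.899-fold to 1.69-fold. When single libraries were left out, the log2 fold change ran from 0.12 without wild type replicate 3 to 0.50 without wild type replicate 2. In the latter setting its unadjusted limma p was 0.0235 (limma adjusted p = 0.798). With the nerve markers as a covariate the sign turned, to -0.04.

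Megf10 (ENSMUSG00000024593), the mammalian relative of the fly engulfment receptor Draper, expressed by glia and by muscle stem cells, was the least abundant member. It measured 14.80, 10.73 and 9.54 TPM in the Plscr5-/- libraries, against 12.01, 11.05 and 8.64 TPM in their wild-type counterparts. As for Adgrb1, knockout replicate 1 was highest and wild type replicate 3 lowest, while the remaining 2 knockout libraries lay below the remaining 2 of wild type. The means were 11.7 ± 2.8 and 10.6 ± 1.7 TPM (log2 fold change 0.12, SE 0.18, 95% confidence interval -0.30 to 0.55). The log2 fold change was -0.05 without knockout replicate 1, -0.13 with the nerve marker covariate and 0.00 to 2 decimals without wild type replicate 3, so its direction rests on single libraries. The 10 markers of skeletal muscle and its stem cells summed to 19.4 to 24.1 TPM in wild-type libraries, and the Plscr5-/- sums lay inside that range, with 3 of the 10 above the filter. Most of that sum was Des, an intermediate filament gene of muscle, at 14.32 to 17.54 TPM, and 6 of the 10 stayed under 1 TPM in every library, among them the stem cell gene Pax7.

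**Figure D3:**
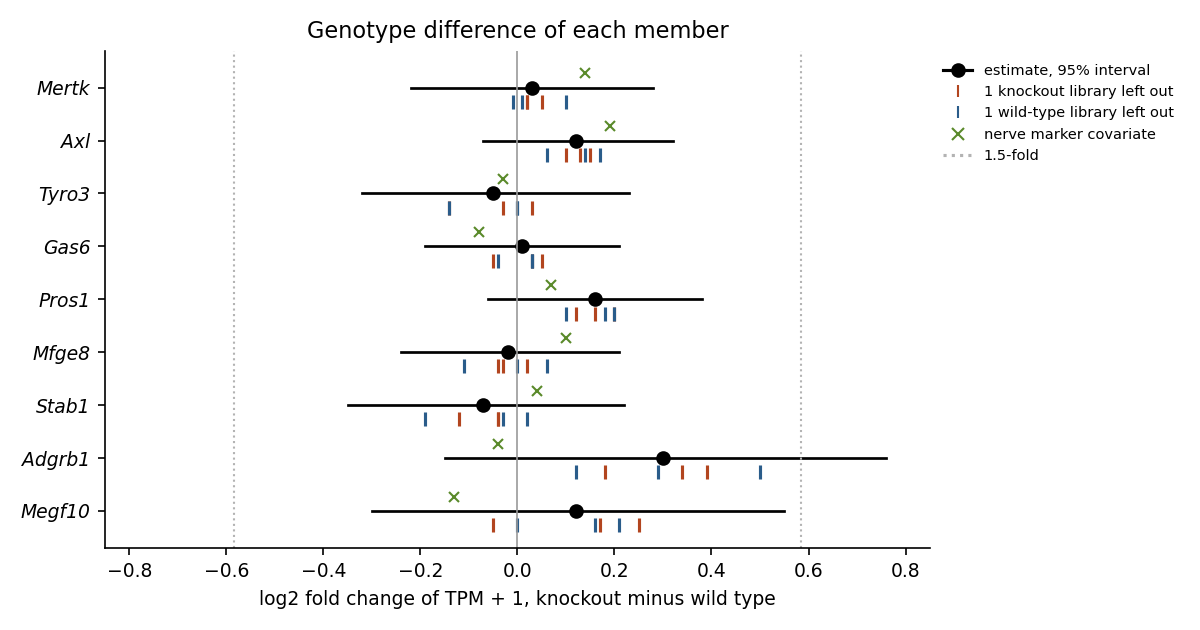
Log2 fold change of TPM + 1, knockout minus wild type (horizontal axis), for each gene, with its 95% confidence interval as a black line, the estimates with 1 library left out as ticks below it, and the estimate with the nerve marker covariate as a cross above it. All 9 intervals include 0, and only that of Adgrb1, from -0.15 to 0.76, passes the dotted 1.5-fold line.

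Adgrb1 was high where nerve markers were high. Across the 6 libraries its log2(TPM + 1) had a Pearson r of 0.92 and a Spearman rho of 0.94 with the mean level of the neuron markers, and the same values with the Schwann cell markers. Leaving out the 2 libraries farthest from the median, knockout replicate 1 and wild type replicate 3, gave an r of 0.74 with neuron and 0.60 with Schwann cell markers over 4 libraries. For Megf10 the r was 0.69 with neuron and 0.79 with Schwann cell markers, and it fell to -0.41 and -0.34 without those 2 libraries, so that relation rests on them. For Pros1 the r was 0.87 with neuron markers, and 0.66 without the 2 libraries. Pros1 was as close to the osteoblast markers (r 0.86, rho 0.94), with 0.86 again when the 2 libraries farthest in that list were left out, and to the hair cell markers (r -0.89), where the sign turned, to 0.51, without the 2 farthest. For Mfge8 the r with neuron markers was -0.55, and 0.82 without the 2 libraries.

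Other marker lists were the closest to the remaining members, the second r in each case leaving out the 2 libraries farthest in the list. Mfge8 and Stab1 ran opposite to the melanocyte markers, with an r of -0.95 (then -0.89) for Mfge8 and of -0.92 (then -0.73) for Stab1. Only 4 of the 7 melanocyte markers passed the filter and entered that level, and 3 stayed under 1 TPM in every library. Mertk was closest to otic fibroblast markers, at 0.92 (then 0.86), and Tyro3 to endothelial markers, at 0.80 (then 0.59). Axl was closest to the supporting cell markers, at -0.89 (then -0.28), and Gas6 to Schwann cell markers, at 0.70 (then -0.71), so the relations of Axl and Gas6 rest on the libraries left out. These are 108 relations in all, 9 genes against 12 marker lists, given as a description. The points share library and scaling, since a TPM value depends on every other transcript in the library. The part of the nerve markers in the levels of Adgrb1 and Megf10 was not tested beyond the covariate.

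**Figure D4:**
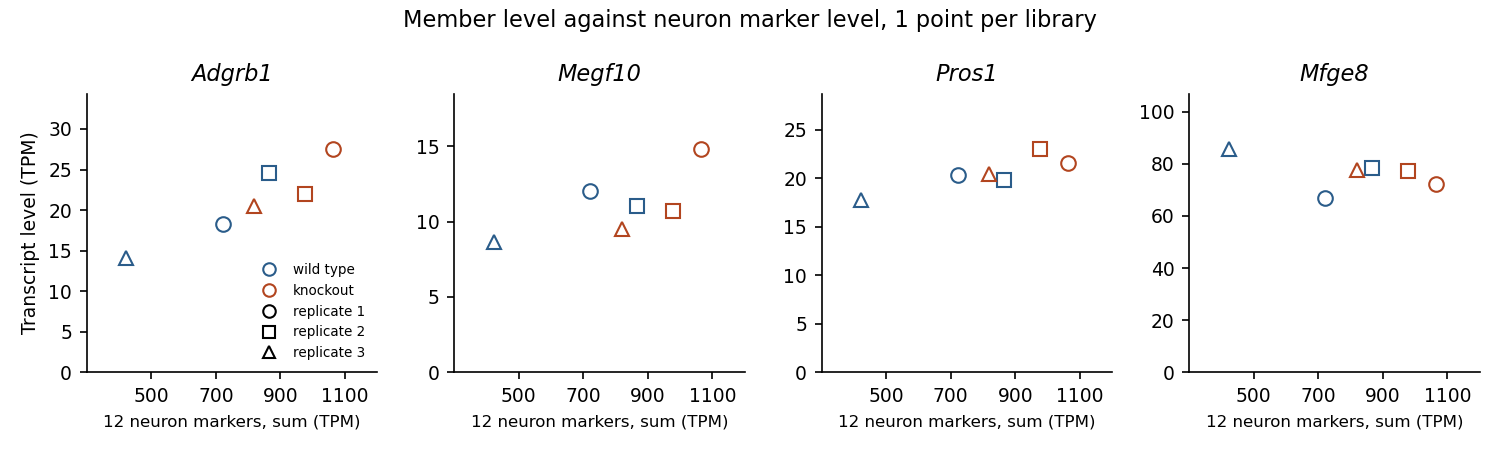
Level of Adgrb1, Megf10, Pros1 and Mfge8 in TPM (vertical axes from 0) against the summed TPM of 12 neuron markers (horizontal axis), 1 point per library, wild type in blue and knockout in red. Wild type replicate 3 lies alone at the left, at 422 TPM of neuron markers, where Adgrb1, Megf10 and Pros1 are lowest and Mfge8 is highest.

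Mfge8 lay above 86.3% of the tested protein-coding genes by mean TPM, Gas6 above 81.0%, Axl above 76.2% and Megf10 above 31.6%. The order began alike in both genotypes with Mfge8, Gas6, Axl, Tyro3 and Stab1, and ended with Mertk and Megf10. Mfge8 against Gas6, Gas6 against Axl and Axl against Tyro3 had ranges that did not overlap within either genotype. Adgrb1 and Pros1 changed places, with Adgrb1 ahead in the knockout and Pros1 in the wild type, and their ranges overlapped in both. The ranges of Stab1 and Adgrb1 also overlapped in the knockout, and those of Adgrb1 and Mertk in the wild type. As neighbours, Tyro3 and Stab1 overlapped in the wild type only, and those of Mertk and Megf10 in the knockout only.

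In the wider engulfment pathway no gene passed the test. Over 5 lists of 71 genes chosen by function, 63 passed the filter on low values and 0 passed the test in either direction (smallest limma adjusted p = 0.989). An unadjusted limma p under 0.05 was found for 2 of the 63, or 3.17%, against 4.00% of all features, and groups failed to overlap at 6, or 9.52%, against 9.33%. Both shares are near the background.

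Of 24 other phosphatidylserine receptors and bridges, 16 were tested, 11 higher and 5 lower, the median log2 fold change being 0.11, and 0 passed the test. That median was 0.00 without wild type replicate 1. The 8 that did not pass the filter include receptors typical of immune cells, and 7 of them stayed under 1 TPM in every library, among them Timd4 and Havcr2 of the TIM family and Stab2, the endothelial paralog of Stab1, which reached at most 0.62 TPM. Calr, the chaperone that serves as an engulfment signal when exposed at the surface, and Lrp1, a receptor that recognises it, were the most abundant, with means of 1496 ± 390 and 207 ± 26 TPM in Plscr5-/- libraries, against 1631 ± 220 and 212 ± 39 TPM in wild-type ones. Trem2, a lipid receptor of macrophages and microglia, measured 7.33, 9.86 and 6.48 TPM in the Plscr5-/- libraries, against 4.81, 6.43 and 6.48 TPM in their wild-type counterparts, touching at 6.48 TPM (log2 fold change 0.36, SE 0.18, limma adjusted p = 0.989). Without knockout replicate 2 the log2 fold change of Trem2 was 0.20. Tub, which has been described as a Mertk ligand, had a log2 fold change of 0.41 (SE 0.21), 0.22 without knockout replicate 1 and 0.14 with the nerve marker covariate. Megf11, the paralog of Megf10, did not overlap between groups, at 1.36 to 1.54 TPM in Plscr5-/- libraries, against 1.11 to 1.35 TPM in wild-type ones, and was named after its values were seen.

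None of the 18 signalling genes downstream of the receptors passed the test. All 18 were measured above the filter, 11 higher and 7 lower, the median log2 fold change being 0.01. Rac1, the GTPase that drives the actin of the engulfing cup, averaged 241 ± 19 TPM over the Plscr5-/- libraries, against 230 ± 6.4 TPM over wild type. Elmo1 and Dock1, the exchange factor pair that links Adgrb1 to Rac1 and that was named after its values were seen, averaged 15.5 ± 0.46 and 24.2 ± 2.2 TPM over the Plscr5-/- libraries, against 15.5 ± 1.9 and 25.3 ± 0.92 TPM over wild type. Elmo2 had a log2 fold change of 0.14 (SE 0.09), the adaptor gene Gulp1 0.20 (SE 0.14), the exchange factor genes Vav3 -0.17 (SE 0.11) and Trio -0.02 (SE 0.10). Vav1, named after its values were seen, was the 1 gene of this list without overlap, at 1.60 to 1.68 TPM against 1.52 to 1.58 TPM.

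Among 14 regulators and targets of TAM signalling, 5 were higher and 9 lower, the median log2 fold change being -0.03. Twist2, a transcription factor of mesenchyme that is also induced through Axl in macrophages, measured 14.82, 13.68 and 13.16 TPM in the Plscr5-/- libraries, against 9.44, 10.07 and 10.48 TPM in their wild-type counterparts. All knockout libraries lay above all wild-type libraries (log2 fold change 0.44, SE 0.11, unadjusted limma p = 0.00359, exact permutation p = 0.1). Its p ranked 38 among the 17097 features and did not survive adjustment (limma adjusted p = 0.989), and leaving out single libraries gave log2 fold changes of 0.39 to 0.47.

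Pik3r1, the regulatory subunit of PI3-kinase, had a log2 fold change of -0.18 (SE 0.10). Nr1h2, a sterol receptor that raises Mertk in macrophages, and Adam10, a sheddase, were the most abundant of this list, with log2 fold changes of 0.08 (SE 0.11) and -0.09 (SE 0.08).

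None of the genes that make Gas6 and protein S able to bind the lipid passed the test. Of 7 genes of vitamin K carboxylation and propeptide cleavage 3 were higher and 4 lower, the median log2 fold change being 0.00. Vkorc1, which recycles vitamin K, averaged 115 ± 5.2 TPM over the Plscr5-/- libraries, against 110.0 ± 3.6 TPM over wild type, and Calu, which binds the carboxylase complex, averaged 313 ± 0.79 and 319 ± 15 TPM. Aifm2, a quinone reductase that also acts on vitamin K, had a log2 fold change of 0.10 (SE 0.12).

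Of 8 genes for the signals that attract phagocytes and their receptors, 4 were higher and 4 lower, their median log2 fold change being 0.01, and 0 passed the test. The groups did not overlap at 2 of the 8, both lower in the knockout, where 4.74% of all tested features were lower without overlap. S1pr1, a receptor for sphingosine-1-phosphate, measured 25.41, 23.43 and 22.19 TPM in the Plscr5-/- libraries, against 27.20, 25.63 and 26.80 TPM in their wild-type counterparts (log2 fold change -0.16, SE 0.09, limma adjusted p = 0.989). P2ry6, a nucleotide receptor, stood at 2.83 ± 0.20 and 3.29 ± 0.30 TPM (log2 fold change -0.16, SE 0.15). P2ry2, another nucleotide receptor, had a log2 fold change of 0.22 (SE 0.17), which was 0.05 without knockout replicate 2, and Sphk1, which makes sphingosine-1-phosphate, one of 0.04 (SE 0.10).

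**Figure D5:**
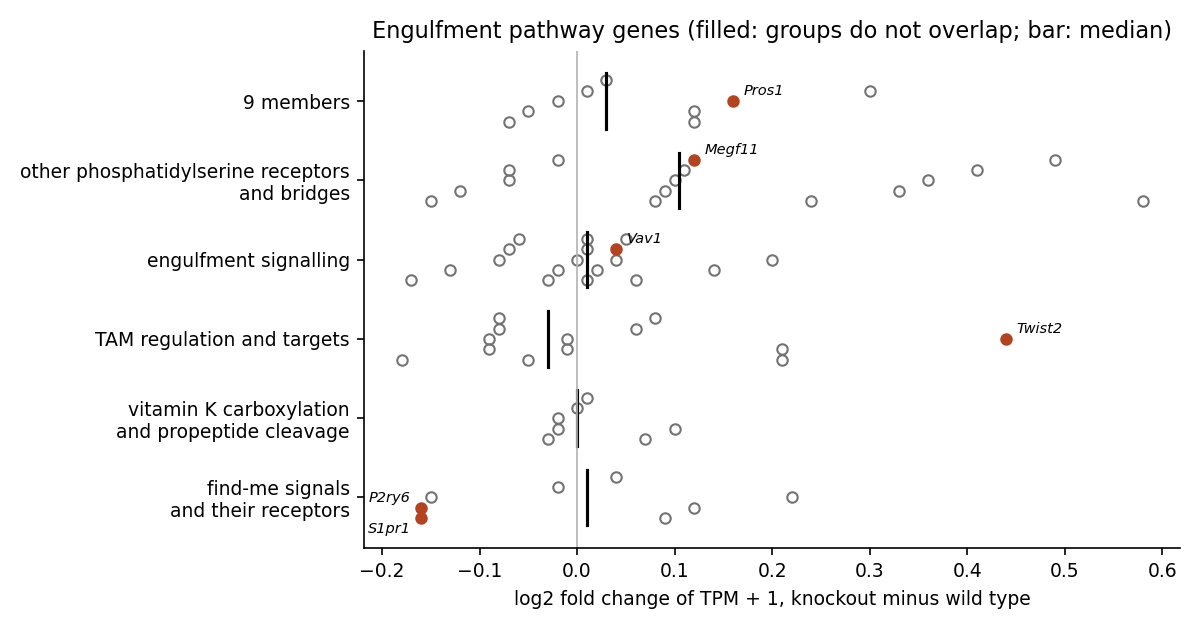
Log2 fold change of TPM + 1, knockout minus wild type (horizontal axis), of the 9 members and of the tested genes of 5 pathway lists, 1 point per gene, spread vertically only to keep points apart, with a bar at each list's median. Filled points are genes whose groups do not overlap, and Twist2 at 0.44 lies farthest to the right among them. 1 gene of the list of TAM regulators and targets is not drawn.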

How the data were processed

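The authors deposited 1 table per library in TPM, with a sum of at least 999999 per library; the unit was read from the values. DESeq2 and mm8 appear in the submitters' processing notes, without a role; for aligner, quantifier and annotation the answer is: not given in the sources used here. Symbols came from GENCODE M21 (GRCm38), which named 52083 features; that build differs, so no genome coordinates are printed. TPM keeps no depth, so no counting interval can be given.

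Features that reached 1 TPM in 3 or more libraries were tested on log2(TPM + 1) with limma 3.58.1 in R 4.3.3 (trend, robust), adjusting by Benjamini-Hochberg over all 17097 at 0.05. On simulated data with the spreads of these 17097 features, 0 of 67 features changed 1.25-fold passed, 15 of 67 changed 1.5-fold (22.4%) and 39 of 66 changed 2-fold (59.1%), with 1 unchanged feature passing. The changed features were drawn only from those above a set mean level. Far more features passed there than the 2 that passed in the real data, which makes the adjustment more lenient. These rates are therefore likely higher than those that hold for the real data. Permutation tests used SciPy 1.17.1, and coding sequences were aligned with MAFFT 7.526. The nerve marker covariate was the mean centred log2 level of 24 neuron and Schwann cell markers. It was 0.572, 0.324 and 0.126 in the knockout libraries and -0.024, 0.184 and -1.183 in the wild-type ones. The covariate thus goes partly with genotype and lies far lowest in wild type replicate 3, so estimates with it do not fully separate these.

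Alternatives were other scalings (an unweighted trimmed mean computed on TPM stood in for the planned count-based one), pseudocounts, filters and variance settings, that covariate, replicate number as a block, and leaving out single libraries. The named genes were the 9 members, Plscr5, and of each pathway list the 3 with the smallest p and the 2 most abundant; genes said to be named after their values were seen fall outside this. For likeness of pattern, the 2 protein-coding genes of at least 5 TPM with the highest Pearson r were taken per member. Members, lists and tests were chosen with earlier results of these data known. 1 gene of the pathway lists is counted but not reported here.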

Additional observations from a re-analysis of the deposited data

How the results depend on the processing

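Under 18 other settings 0 of the 9 members passed limma's adjusted threshold, and 149 of 162 estimates kept their direction or rounded to 0.00. The 13 that turned, as read to 2 decimals, came from the nerve marker covariate and from leaving out single libraries. With the covariate the log2 fold changes were -0.08 for Gas6, 0.10 for Mfge8, 0.04 for Stab1, -0.04 for Adgrb1 and -0.13 for Megf10, and among other named genes -0.03 for Edil3, 0.07 for Lrp1, 0.02 for Trio and -0.20 for Itgb3; the cause was not tested. Leaving out 1 library at a time gave ranges of -0.01 to 0.10 for Mertk, -0.14 to 0.03 for Tyro3, -0.05 to 0.05 for Gas6, -0.11 to 0.06 for Mfge8, -0.19 to 0.02 for Stab1 and -0.05 to 0.25 for Megf10. It gave -0.18 to 0.09 for Lrp1, -0.12 to 0.04 for Trio, -0.02 to 0.18 for Nr1h2, -0.06 to 0.01 for Calu, -0.03 to 0.09 for Sphk1 and -0.05 to 0.10 for Elmo1. Estimates that kept their sign but moved with single libraries ran from 0.11 to 0.34 for Gulp1, 0.07 to 0.20 for Elmo2, 0.01 to 0.17 for Aifm2, 0.05 to 0.33 for P2ry2, -0.35 to -0.04 for Calr and -0.28 to -0.11 for Pik3r1. Of 90 list medians 5 moved by more than the spread between libraries: 0.00 for the other receptors and bridges without wild type replicate 1, 0.04 for TAM regulation without knockout replicate 3, 0.08 for vitamin K carboxylation with the covariate, and for the find-me genes 0.06 at a filter of 5 TPM and -0.06 without knockout replicate 2. Over all features, 2 passed as lower and 0 as higher. The count of lower features was 0 with no filter, 0 without the variance trend, 0 with the replicate block, 1 with trimmed mean scaling, 1 with upper-quartile scaling, 1 without mitochondrial and haemoglobin genes, 3 with the nerve marker covariate, and 0 to 2 with 1 library left out. The count of higher features was 1 with the nerve marker covariate and 0 to 2 with 1 library left out, 2 of them without wild type replicate 3. Features with an unadjusted p under 0.05 numbered 684, then 1125 with the covariate, 1250 with the replicate block, and 354 (without knockout replicate 2) to 1046 (without wild type replicate 2) with 1 library left out. Same-numbered libraries correlated in their deviations at 0.19, -0.05 and 0.24, and differently numbered ones at -0.27 to 0.13. The main fit did not pair the libraries, and whether the numbers mark pairs was not tested. With 3 libraries a side and no read depth, changes under about 1.5-fold could rarely pass.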

Other observations

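Among the 36 pairs that the 9 genes form, the highest correlations of log2(TPM + 1) across the 6 libraries were between Gas6 and Megf10 (Pearson r = 0.92, Spearman rho = 0.89) and between Mfge8 and Stab1 (r = 0.91, rho = 0.83). Without the 2 libraries farthest from the median of the first gene they were 0.69 and 0.56. The ligand and receptor pairs did not stand out: the r with Gas6 was -0.24 for Axl, -0.46 for Mertk and 0.36 for Tyro3. With Pros1 it was -0.43 for Mertk and -0.47 for Tyro3. Mfge8 and Stab1 were both lowest in wild type replicate 1 and highest in wild type replicate 3.

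The genes whose pattern over the 6 libraries was most like each member, among 11904 protein-coding genes of at least 5 TPM, were Irx5 (r = 0.9907) and Plekhh2 (0.9864) for Mertk, Cpt1c (0.9879) and Rnf208 (0.9837) for Axl, Bace2 (0.9845) and Ubald1 (0.9842) for Tyro3, and Mon1a (0.998) and Taco1 (0.9947) for Gas6. For Pros1 they were Prss35 (0.9917) and Ppp3cc (0.9889), and for Mfge8 Med17 (0.9935) and Egfl7 (0.9905). Egfl7 is 1 of the 10 endothelial markers, a list whose mean level had an r of only 0.37 with Mfge8. For Stab1 they were Zscan25 (0.9896) and Spsb1 (0.9785), for Adgrb1 Zcchc17 (0.9939) and Iglon5 (0.9933), and for Megf10 Il6st (0.9958) and Eif3a (0.9957). With only 6 points, between 9 genes (for Stab1) and 170 genes (for Megf10) exceeded an r of 0.95, so these names are a description of the libraries.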
